A study of Mus musculus with 6 samples.

Results

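Ceramide synthases and sphingolipid enzymes are described here in the liver of mice that lack profilin 2, a small actin-binding protein. Messenger RNA was measured on 6 Affymetrix arrays of whole liver from mice of strain C57BL/6, 3 wild type and 3 Pfn2-/-, each described as an independent biological replica. In either genotype, replicate 1 came from an animal of 9 months, replicate 2 from one of 8.5 months and replicate 3 from one of 8 months. No treatment was applied, and the sex of the animals and the way the Pfn2 allele was made stand in none of the labels used here. The 10 genes, Sptlc1, Sptlc2, Cers2, Cers4, Cers5, Cers6, Degs1, Degs2, Ugcg and Smpd1, are 10 of the 22180 genes measured by a row that names exactly 1 gene. They were chosen by their pathway after the knockout minus wild-type differences of this series were known, above all the low values of Cers6 in the knockout. The genotype comparison of these 10 genes is therefore given as a description without a test.

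Ceramide is the core of sphingolipids such as sphingomyelin and glucosylceramide. Serine palmitoyltransferase, whose catalytic subunits are encoded by Sptlc1 and Sptlc2, joins serine to a fatty acyl-CoA in the first step of the pathway, and after a reduction a ceramide synthase attaches a second acyl chain. The ceramide synthases differ in the chain they attach: Cers2, the main form in liver, prefers very long acyl chains, Cers5 and Cers6 prefer palmitoyl-CoA and other long chains, and Cers4 takes long to very long chains. Degs1 inserts the double bond that turns dihydroceramide into ceramide, and Degs2 is its hydroxylating relative. Ceramide then goes to glucosylceramide by the synthase Ugcg or to sphingomyelin, from which the lysosomal sphingomyelinase Smpd1 releases it again.

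The start-site regions of 3 ceramide synthase genes are shown because their transcripts differed in how they lay between the genotypes: Cers6 and Cers5 were lower in every knockout array than in any wild-type array, and Cers2 was not. Each runs 5′ to 3′ on the gene's strand from 250 bases before to 50 bases after a RefSeq start site on build GRCm38.p6. Cers6 lies at chr2:68861191-68861490 on the plus strand, Cers5 at chr15:99772466-99772765 on the minus strand and Cers2 at chr3:95314940-95315239 on the plus strand. Capitals mark the E-box CACGTG, the CCAAT box and the GC box GGGCGG on either strand, and no marked motif overlaps another.
Cers6: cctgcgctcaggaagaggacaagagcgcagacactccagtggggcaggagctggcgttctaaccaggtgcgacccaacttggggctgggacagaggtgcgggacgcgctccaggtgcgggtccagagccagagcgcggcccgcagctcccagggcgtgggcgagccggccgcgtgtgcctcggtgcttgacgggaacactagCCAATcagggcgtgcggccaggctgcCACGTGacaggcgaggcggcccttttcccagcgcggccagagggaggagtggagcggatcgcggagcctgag
Cers5: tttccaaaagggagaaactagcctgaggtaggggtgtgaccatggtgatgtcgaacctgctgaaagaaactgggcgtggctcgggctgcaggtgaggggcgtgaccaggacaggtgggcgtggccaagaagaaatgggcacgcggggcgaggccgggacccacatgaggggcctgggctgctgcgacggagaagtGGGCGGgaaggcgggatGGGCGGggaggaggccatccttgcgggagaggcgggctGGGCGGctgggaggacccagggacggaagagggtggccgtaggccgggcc
Cers2: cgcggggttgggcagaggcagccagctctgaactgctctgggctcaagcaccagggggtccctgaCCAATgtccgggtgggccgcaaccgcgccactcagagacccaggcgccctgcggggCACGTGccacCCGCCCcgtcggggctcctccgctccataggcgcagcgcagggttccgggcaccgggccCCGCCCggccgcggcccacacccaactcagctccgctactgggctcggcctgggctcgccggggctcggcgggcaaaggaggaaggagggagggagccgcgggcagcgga

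The Cers6 region held 1 E-box, with its first base 22 bases before the start site, and 1 CCAAT box, 48 bases before it, and no GC box. The Cers5 region held 3 GC boxes and neither of the other motifs, and the Cers2 region held 1 E-box, 1 CCAAT box and 2 GC boxes. A second RefSeq start region of Cers2, at chr3:95318580-95318879, held none of them. Among all 32851 start regions of this length in the table, 7.15% held the E-box, 37.4% the CCAAT box and 35.7% the GC box. All 10 genes had such a region, 11 in total, and the E-box was found for Cers2, Cers6 and Degs1. The sterol regulatory element, searched as TCACNCCAC, was found in none of the 11 regions and in 1.24% of all regions. The annotated spans of Cers6 and Cers2, given below, begin before these regions, so bases ahead of the start site used lie within those genes. A match is a run of letters and not a measured binding site.

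All values below are RMA expression on the log2 scale, where 1 unit is a 2-fold difference, and differences are knockout minus wild type with the standard error (SE) of a limma fit over all genes. The row of Pfn2 itself was dim and did not separate the genotypes, at 4.02, 3.85 and 4.09 in wild type and 3.88, 3.81 and 3.93 in the knockout (adjusted p = 0.961), and the exons its probes cover are not known here, so it checks no label. The 10 hepatocyte markers lay at 7.73 to 13.04 in all 6 arrays. Wild-type replicate 3 stood apart in genes of fatty acid synthesis, with Fasn at 11.84 against 9.12 to 10.17 in the other arrays. Knockout replicates 1 and 3 stood apart in acute-phase genes, with Saa2 at 10.83 and 12.22 against 6.76 to 7.80, and replicate 3 also in the heat shock gene Hspa1b, at 8.65 against 5.51 to 6.38. Arrays measure no depth, and their number limits the precision.

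Across all 22180 genes, limma called 0 (0%) at a Benjamini-Hochberg adjusted p under 0.05 and 1174 (5.29%) at an unadjusted p under 0.05. The groups did not overlap for 2 of the 10, Cers5 and Cers6, both lower in the knockout, where 9.85% of all genes had groups without overlap in either direction. These shares stand beside the 10 genes only as background, since the genes were chosen on this comparison. The median difference of the 10 was -0.06 and the median size of their differences 0.14, against 0.11 over all genes.

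Cers6, the synthase of long-chain ceramides (NCBI Gene 241447, at chr2:68861145-69114284 on GRCm38.p6), was 2.55-fold lower in the knockout. Its row gave 7.79, 8.23 and 7.02 for the wild-type livers against 6.19, 6.96 and 5.84 for the knockout livers, differing by -1.35 (SE 0.33, 95% confidence interval -2.09 to -0.61). All 3 knockout arrays lay below all 3 wild-type arrays, but the gap between the lowest wild-type and the highest knockout array was small, and replicate 2 was the highest and replicate 3 the lowest in either genotype. Only 10 of the 22180 genes, Cers6 included, had a difference as low as this or lower. This rank is a description and no support, since Cers6 was chosen with this difference known. Leaving out single arrays moved it between -1.68 and -1.08, the former without wild-type replicate 3 and the latter without wild-type replicate 2. Knockout replicates 1 and 3, the arrays with high Saa2, had the lowest Cers6, and with both left out the difference was -0.72 (SE 0.40, interval -1.65 to 0.21), resting on 1 knockout array whose spread is taken to be that of wild type. In wild type Saa2 lay at 7.80, 7.11 and 6.76, so there replicate 3 was lowest in both Saa2 and Cers6. The part of the acute-phase state in the difference was not tested. In whole liver, fewer cells of a type and less RNA per cell cannot be told apart.

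Cers5 (Gene 71949, chr15:99735592-99772515), which shares the chain preference of Cers6, lay at 4.59, 5.05 and 4.22 in wild type against 4.18, 4.21 and 4.10 in the knockout. The difference was -0.46 (SE 0.19, interval -0.88 to -0.03), with wild-type replicate 3 nearly at the knockout level. The row was dim, with a mean of 4.39 below the median of 4.72 over all gene means, and its difference was -0.24 without wild-type replicate 2. Cers4 (Gene 67260, chr8:4492818-4529603) lay at 5.54, 5.16 and 4.75 in wild type against 4.89, 4.82 and 4.63 in the knockout, differing by -0.37 (SE 0.19, interval -0.80 to 0.06). Its groups overlapped through wild-type replicate 3, and the difference was -0.18 without wild-type replicate 1 and -0.57 without wild-type replicate 3.

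Cers2 (Gene 76893, chr3:95314771-95323599), the synthase of very-long-chain ceramides, showed no such pattern. Its values were 8.62, 8.68 and 8.98 in wild type against 9.12, 8.61 and 8.78 in the knockout, differing by 0.08 (SE 0.16, interval -0.29 to 0.44). The groups overlapped, with knockout replicate 1 highest and knockout replicate 2 lowest of all 6 arrays, and the sign turned without knockout replicate 1, to -0.07. A dimmer row of Cers2 lay at 4.89, 5.39 and 5.58 in wild type against 5.50, 5.59 and 5.70 in the knockout, differing by 0.31 (SE 0.18).

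**Figure D1:**
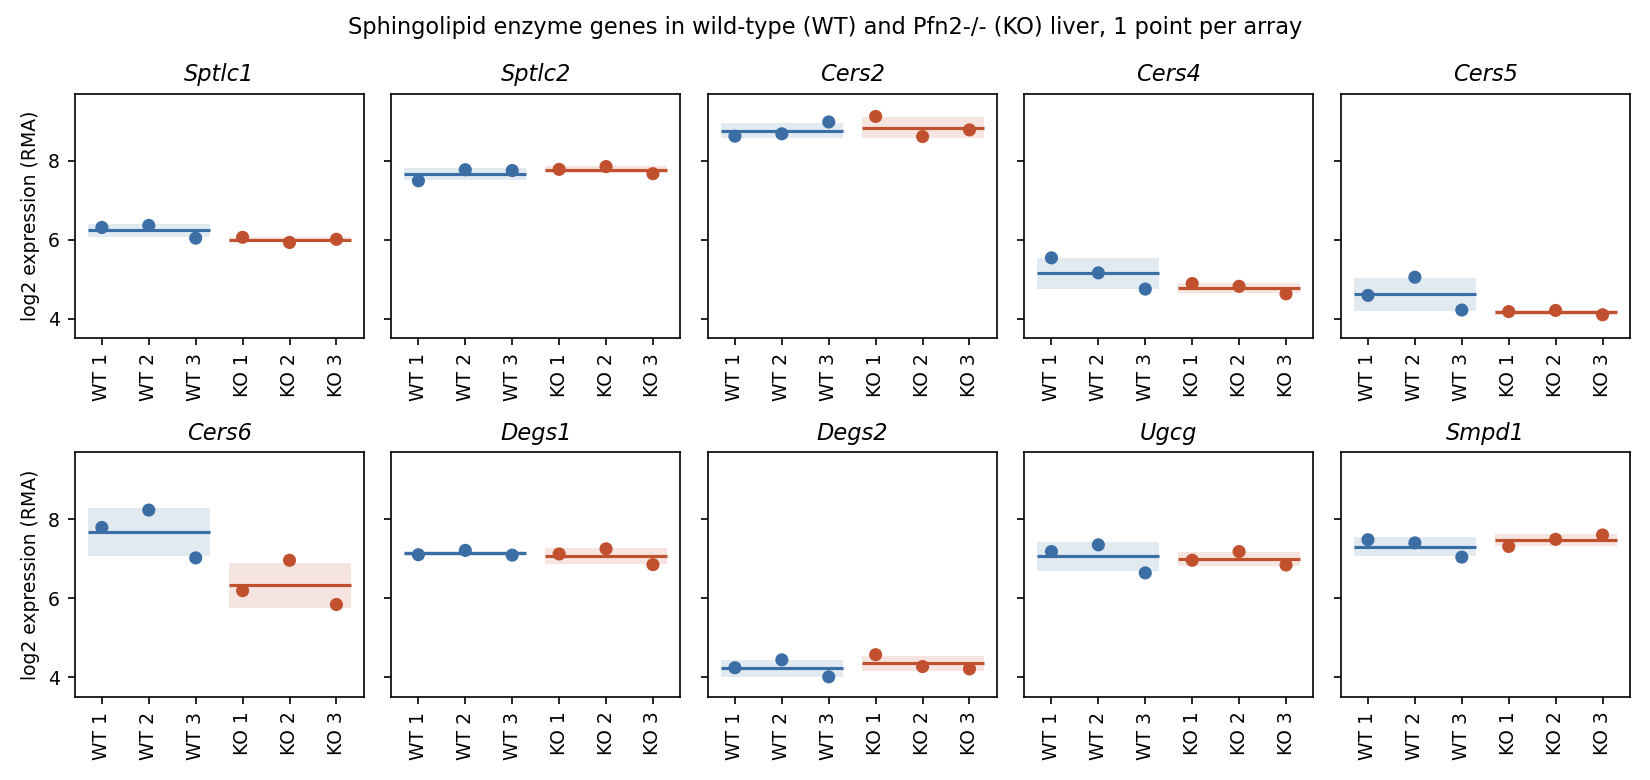
Log2 RMA expression (vertical axis) of the 10 sphingolipid enzyme genes in each of the 6 arrays (horizontal axis; WT wild type, KO Pfn2-/-, numbers are replicates), with the group mean as a line and 1 SD either side as a band (n = 3). Cers6 lies at 7.02 to 8.23 in wild type and 5.84 to 6.96 in the knockout, while Cers2 and Sptlc2 overlap between the genotypes. Levels of different genes come from different probes and are not comparable with each other.

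The serine palmitoyltransferase subunits upstream of the ceramide synthases overlapped between the genotypes. Sptlc1 (Gene 268656, chr13:53332748-53377417) lay at 6.31, 6.36 and 6.04 in wild type against 6.06, 5.93 and 6.01 in the knockout, differing by -0.24 (SE 0.13, interval -0.53 to 0.05). Wild-type replicate 3 lay within the knockout range, and the other wild-type arrays above it. Sptlc2 (Gene 20773, chr12:87305058-87388355) lay at 7.49, 7.77 and 7.75 against 7.78, 7.85 and 7.67, differing by 0.10 (SE 0.13, interval -0.19 to 0.39), with overlapping groups.

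The enzymes after the ceramide synthases also overlapped between the genotypes. Degs1 (Gene 13244, chr1:182275964-182282854), the desaturase, lay at 7.10, 7.21 and 7.09 in wild type against 7.12, 7.25 and 6.85 in the knockout (-0.06, SE 0.14, interval -0.36 to 0.24). Degs2 (Gene 70059, chr12:108686792-108702306), the hydroxylating form, had a dim row at 4.24, 4.44 and 4.01 against 4.57, 4.27 and 4.21 (0.12, SE 0.15, interval -0.22 to 0.46). In Degs1 the knockout arrays lay both above and below the narrow wild-type range, with replicate 3 lowest, and in Degs2 knockout replicate 1 was the highest of all 6 arrays.

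Ugcg (Gene 22234, chr4:59189507-59222833), the glucosylceramide synthase, lay at 7.18, 7.35 and 6.64 in wild type against 6.96, 7.18 and 6.84 in the knockout (-0.06, SE 0.19, interval -0.48 to 0.36). Smpd1 (Gene 20597, chr7:105554360-105558389), the acid sphingomyelinase, lay at 7.48, 7.40 and 7.04 against 7.31, 7.49 and 7.60 (0.16, SE 0.15, interval -0.18 to 0.50). In both genes wild-type replicate 3 was the lowest of the 6 arrays. A dimmer row of Smpd1 gave the opposite sign, at -0.15 (SE 0.13). The signs of Degs1 and Ugcg turned without certain arrays, Degs1 spanning -0.15 to 0.05 and Ugcg -0.27 to 0.08. For all 7 genes other than Cers4, Cers5 and Cers6 the 95% interval lay within 0.53 of 0 on the log2 scale.

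**Figure D2:**
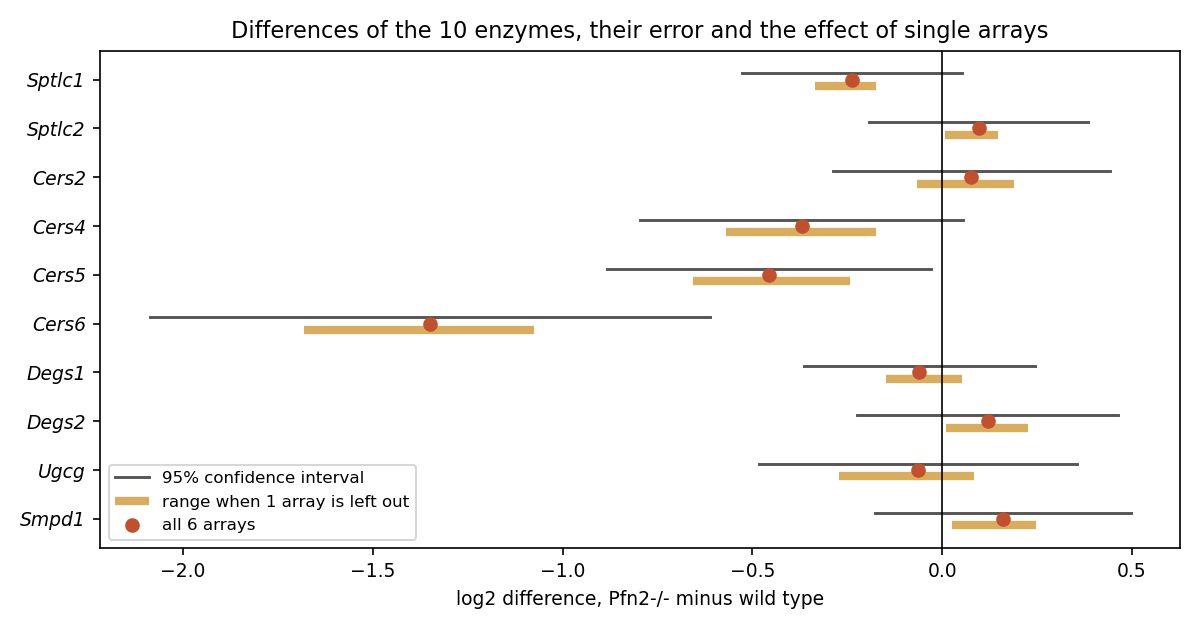
Difference in log2 expression, knockout minus wild type (horizontal axis), of each of the 10 genes (vertical axis): points are the value from all 6 arrays, thin lines the 95% confidence interval of the limma fit and thick lines the range when 1 array is left out. Cers6 lies at -1.35, with a left-out range of -1.68 to -1.08, and the left-out ranges of Cers2, Degs1 and Ugcg cross 0.

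Cers6 was set against Cers2 and against the upstream enzymes within each array. This removes only a shift of equal size in the genes compared, and other differences between arrays stay in. Cers6 minus Cers2 was -0.83, -0.45 and -1.96 in wild type and -2.93, -1.65 and -2.94 in the knockout. The mean was -1.08 ± 0.79 (SD, n = 3) in wild type against -2.51 ± 0.74 in the knockout, lower by 1.43 (-1.43). Knockout replicate 2 lay above wild-type replicate 3, so these groups overlapped although those of Cers6 alone did not. The difference ranged from -1.87 to -1.11 over 16 alternative settings, and with knockout replicate 2 as the only knockout array it was -0.57.

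Cers6 minus the mean of Sptlc1 and Sptlc2 was 0.89, 1.17 and 0.13 in wild type and -0.73, 0.07 and -1.0 in the knockout. The groups did not overlap, by a margin of under 0.1 between wild-type replicate 3 and knockout replicate 2, and the difference between their means was -1.28, or -0.66 without knockout replicates 1 and 3. With Kdsr, the reductase of the step between, averaged into the upstream enzymes it was -1.33. Cers2 minus the same upstream mean averaged 1.81 ± 0.25 (SD, n = 3) in wild type against 1.95 ± 0.24 in the knockout, a difference of 0.15 that is smaller than either SD. Against the mean of the other 9 genes, Cers6 differed by -1.27. Unequal change within an array does not show that any of these genes stayed the same.

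**Figure D3:**
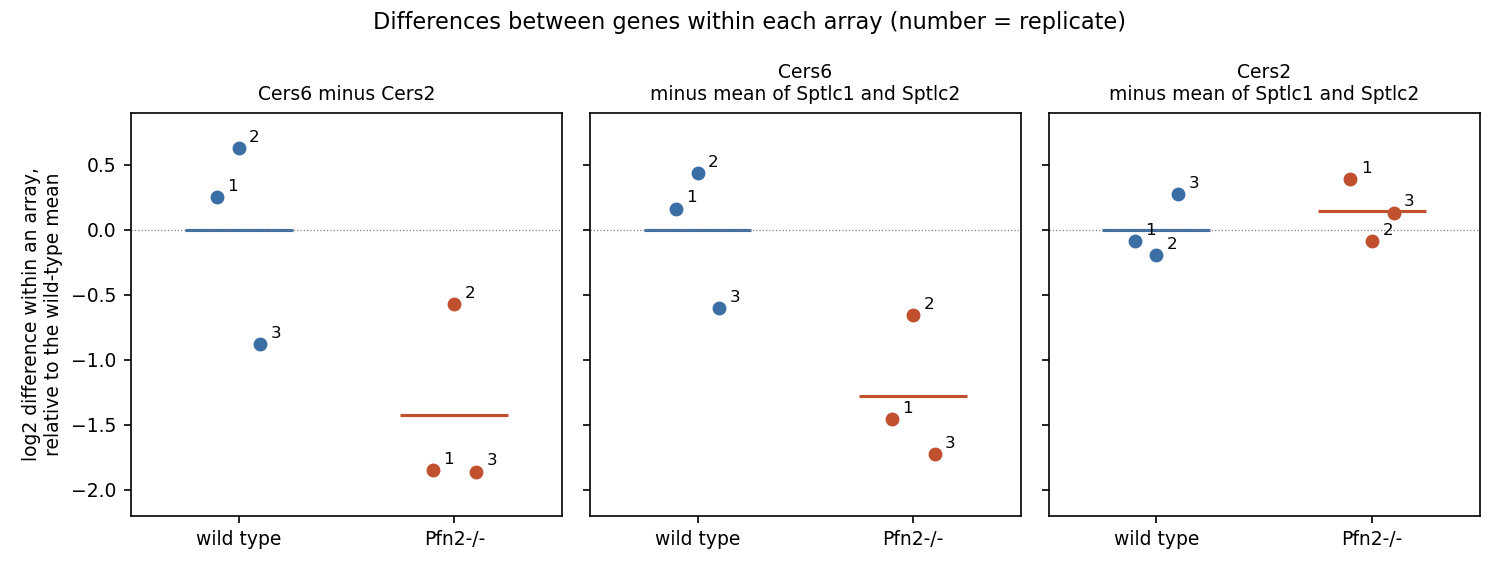
Log2 differences between genes within each array (vertical axis, relative to the wild-type mean of that difference) in wild type and Pfn2-/- liver, with replicate numbers beside the points and group means as lines (n = 3). Cers6 lies lower in the knockout against Cers2 (-1.43) and against the Sptlc1 and Sptlc2 mean (-1.28), while Cers2 against the same enzymes differs by 0.15.

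The 6 arrays also differed within a genotype, and several of the genes moved together there. After removing each genotype's mean, Cers6 correlated across the 6 arrays with Ugcg (Pearson r = 0.94), Cers5 (0.79) and Degs1 (0.78) and ran opposite to Cers2 (-0.66). Cers5 followed Ugcg (0.89) and Sptlc1 (0.82) in the same way. These are descriptions of 6 arrays that share normalization and tissue, among 45 gene pairs. Of the 10 genes, 4 were highest in wild-type replicate 2 and 4 lowest in knockout replicate 3, and 8 had the larger SD in wild type, where 47.1% of all genes did.

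Age, which was not used to choose the genes, was tested with a limma fit of genotype and age in months over all genes. None of the 10 genes was called at an adjusted p under 0.05 (0% of all genes called, smallest adjusted p = 0.995). At an unadjusted p under 0.05 there was 1 of 10, Cers4, where 3.4% of all genes lay below that threshold. Cers4 differed by 0.53 log2 units per month (SE 0.17, interval 0.13 to 0.92, adjusted p = 0.995), and lay highest at 9 months, intermediate at 8.5 months and lowest at 8 months in either genotype. The count was 0 when wild-type replicate 1 or 3 was left out and 2, Cers4 and Cers6, without knockout replicate 1. Cers6 had a slope of 0.56 (SE 0.38, interval -0.31 to 1.43). Each age is 1 animal per genotype, so age and replicate number cannot be told apart.

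The other genes of the pathway were taken by role from lists of 81 genes, of which 76 were measured by a row of their own. None was called over all genes by limma at an adjusted p under 0.05. At an unadjusted p under 0.05 there were 6 (7.89%), 3 higher and 3 lower, beside 5.29% of all genes. The median difference of the 76 was -0.01, with 39 below and 37 above 0, and over all genes it was 0. Cers1, Sptssa and Glb1 share their rows with other genes and were not analysed here.

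At the entry to the pathway, 0 of 5 measured subunits and regulators of serine palmitoyltransferase lay below an unadjusted p of 0.05. The smallest p belonged to Ormdl2, of the family that restrains the enzyme, at 8.41, 8.74 and 8.40 in wild type and 8.72, 8.86 and 8.73 in the knockout (0.25, SE 0.13, adjusted p = 0.943), followed by the small subunit gene Sptssb (-0.23, SE 0.14). The groups of Ormdl2 overlapped by 1 wild-type array, replicate 2. Of the reductase Kdsr, the skin ceramide synthase Cers3 and the hydroxylase Fa2h, 0 of 3 did, and Cers3 (0.13, SE 0.16) and Fa2h (-0.17, SE 0.16) had dim rows.

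Among 9 genes of sphingomyelin synthesis and breakdown 0 lay below an unadjusted p of 0.05. The sphingomyelin synthase Sgms1 differed by -0.32 (SE 0.16, adjusted p = 0.936) and Smpdl3a, of the acid sphingomyelinase family, by -0.23 (SE 0.14). Among 8 ceramidase and ceramide kinase genes, 0 did. The Golgi ceramidase Acer2 lay at 6.65, 6.42 and 6.00 in wild type and 5.71, 6.11 and 6.07 in the knockout (-0.39, SE 0.18, adjusted p = 0.92). Adipor2, an adiponectin receptor with ceramidase activity, differed by 0.35 (SE 0.19).

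Of 8 genes that make, break down or export sphingosine-1-phosphate, 0 lay below an unadjusted p of 0.05. The lyase Sgpl1, which ends the pathway, lay at 7.34, 7.32 and 7.33 in wild type and 7.51, 7.57 and 7.52 in the knockout (0.20, SE 0.11, adjusted p = 0.952). Its groups did not overlap and the difference was small. The transporter gene Mfsd2b had a dim row (-0.21, SE 0.13). Of the 5 receptors 1 lay below that threshold, S1pr1, the receptor of endothelial cells, at 8.14, 7.94 and 8.27 against 8.37, 8.32 and 8.76 (0.37, SE 0.15, adjusted p = 0.92), and S1pr2 differed by 0.21 (SE 0.16).

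St3gal5, the GM3 synthase that opens the ganglioside branch after Ugcg, had the largest difference of the 9 sphingolipid lists. It lay at 9.51, 9.61 and 8.82 in wild type and 7.95, 8.03 and 8.87 in the knockout, 2.04-fold lower on average (-1.03, SE 0.27, adjusted p = 0.746). The groups overlapped, since wild-type replicate 3 and knockout replicate 3 lay at nearly the same level and the other arrays lay far apart. Leaving out single arrays gave -1.32 to -0.86, and leaving out knockout replicates 1 and 3 together gave -1.28. It was the 1 gene of 9 in glycosphingolipid synthesis below an unadjusted p of 0.05, and B3galt4, of the same branch, differed by -0.14 (SE 0.13).

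In lysosomal breakdown 1 of 9 measured genes lay below an unadjusted p of 0.05. Gm2a, the activator protein that presents GM2 ganglioside to its hydrolase, lay at 9.56, 9.50 and 9.62 in wild type and 9.25, 9.28 and 8.97 in the knockout (-0.39, SE 0.13, adjusted p = 0.861), and the galactosidase Gla differed by -0.25 (SE 0.12). Both had groups without overlap, 2 of the 9 on this list and of 10 among all 76 pathway genes, where 9.85% of all genes did. Of 6 transfer genes 1 lay below the threshold, Abca2, a transporter of late endosomes and lysosomes, at 6.25, 6.13 and 6.35 against 6.86, 6.48 and 6.71 (0.44, SE 0.14, adjusted p = 0.825). The ceramide-1-phosphate transfer gene Cptp differed by -0.18 (SE 0.14).

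Among 14 genes that supply acyl chains, 2 lay below an unadjusted p of 0.05, in opposite directions. Elovl3, an elongase of saturated very long chains, lay at 9.09, 9.00 and 9.35 in wild type and 10.04, 10.29 and 11.33 in the knockout (1.41, SE 0.28, adjusted p = 0.588). Every knockout array lay above every wild-type array, replicate 3 highest, and without knockout replicates 1 and 3 the difference was 1.14. Elovl5, which elongates polyunsaturated chains, differed by -0.37 (SE 0.15, adjusted p = 0.915). Elovl1, an elongase of the very long chains that Cers2 uses, differed by -0.19 (SE 0.14), and Elovl6, which extends palmitate, lay at 11.64 in wild-type replicate 3 and at 9.52 to 9.89 in the other 5 arrays. St3gal5, Gm2a, Abca2 and Elovl3 lay below an unadjusted p of 0.05 in the comparison and in each of the 16 other settings that left out at most 1 array. These settings share most of their arrays, and the share of all genes that did so was not counted. Without knockout replicates 1 and 3 the difference of Gm2a was -0.28 and that of Abca2 0.24, both smaller than with all arrays.

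**Figure D4:**
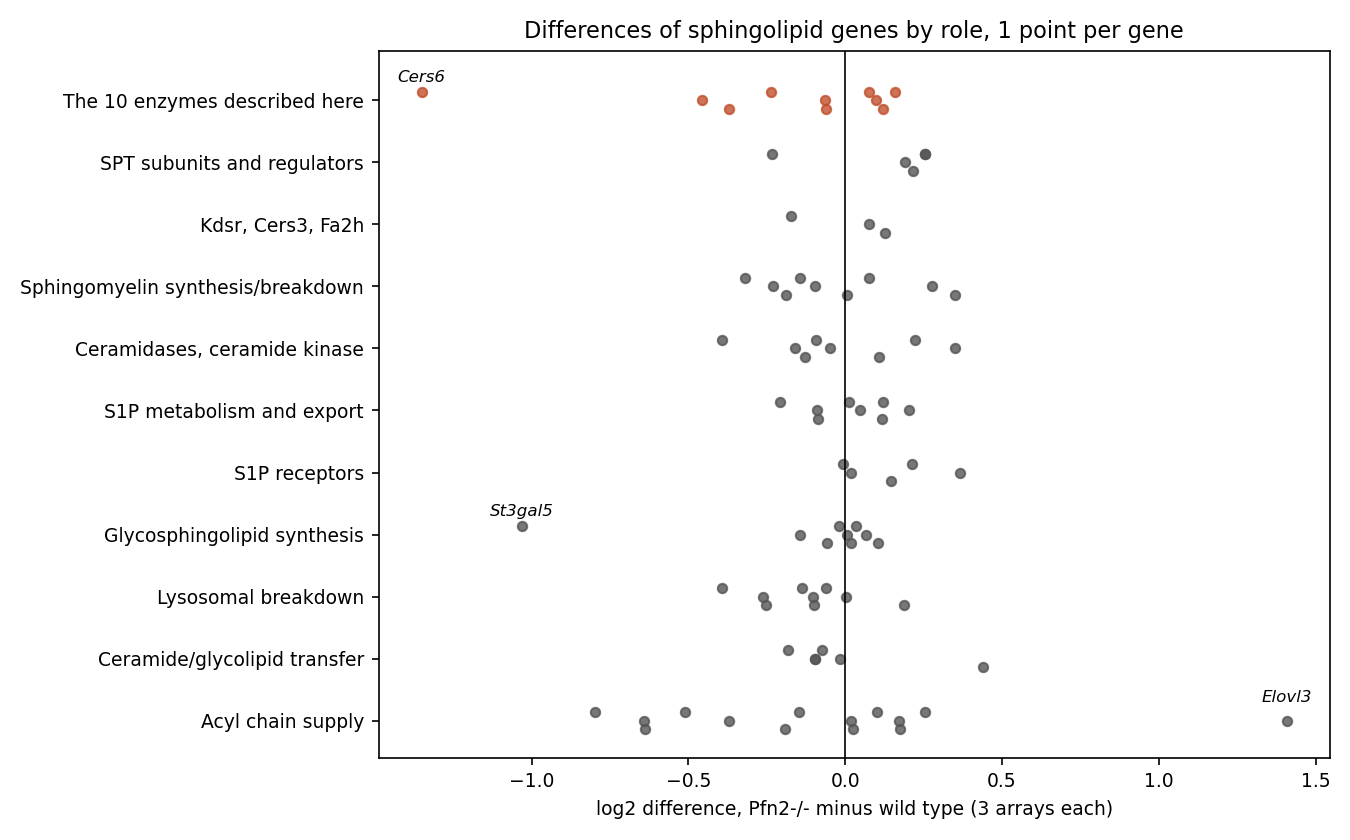
Log2 difference, knockout minus wild type (horizontal axis), of the 10 enzyme genes and of 76 other genes of the pathway and its acyl chain supply by role (vertical axis; SPT, serine palmitoyltransferase; S1P, sphingosine-1-phosphate), 1 point per gene from 3 arrays per genotype. Cers6 (-1.35), St3gal5 (-1.03) and Elovl3 (1.41) lie farthest from 0.

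Marker genes of other liver cells differed among the arrays as well. The mean of 10 endothelial markers, each centred on its own average, lay at -0.12 to 0.25 in wild type and -0.19 to 0.03 in the knockout, and the mean of 10 Kupffer cell and macrophage markers at -0.24 to 0.46 and -0.10 to -0.00. Both means, like Cers6, were highest in replicate 2 and lowest in replicate 3 of either genotype, and their genes lay at 6.39 to 9.23 and 5.96 to 9.32. Some markers followed this order and others did not. The endothelial marker Kdr lay at 8.40, 8.14 and 8.40 in wild type, and the Kupffer cell marker Vsig4 at 8.64, 8.56 and 8.93 in the knockout. Lyve1, given below, varied most among the endothelial markers and so weighed most in their mean. The difference was below 0 for 9 of the 10 endothelial, 9 of the 10 Kupffer cell, 8 of the 10 hepatocyte and 7 of the 10 stellate cell markers, where 11256 of all 22180 genes lay below 0. At an unadjusted p under 0.05, beside 5.29% of all genes, there were 3 markers over all the marker lists. They were 1 of the 10 endothelial markers, Oit3 (-0.32, SE 0.14), and 1 of the 10 stellate cell and fibroblast markers, the collagen gene Col3a1 (-0.30, SE 0.13). In the opposite direction lay 1 of 6 measured cholangiocyte markers, Sox9 (0.58, SE 0.20). The lists of the other cell types held none. None of the 3 passed limma's adjusted threshold (adjusted p = 0.92, 0.92 and 0.895).

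The 10 stellate cell and fibroblast markers lay at -0.04 to 0.13 in wild type and -0.07 to -0.03 in the knockout, the 9 measured lymphocyte markers at -0.17 to 0.29 and -0.03 to -0.01, and the 10 hepatocyte markers at -0.04 to 0.09 and -0.07 to -0.00. All 7 neutrophil markers had a mean below the median of all gene means, as did 6 of the 9 lymphocyte, 4 of 6 measured cholangiocyte, 3 of 4 adipocyte and 3 of 5 exocrine pancreas markers. Single markers ranged more widely than these means: Lyve1, of endothelial cells, lay at 9.07, 9.23 and 6.78 in wild type against 6.72, 8.41 and 7.74 in the knockout. The part of other cell types in the values of Cers6 was not tested.

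**Figure D5:**
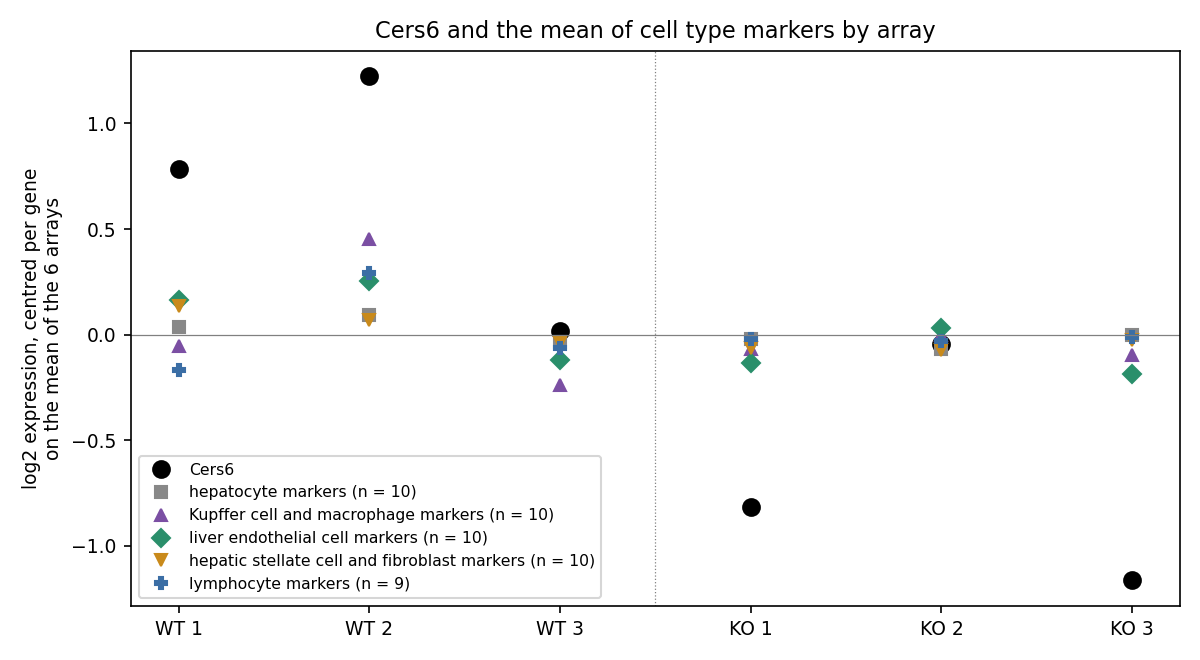
Log2 expression centred on the mean of the 6 arrays (vertical axis) of Cers6 and of the mean of 5 sets of cell type markers in each array (horizontal axis; WT wild type, KO Pfn2-/-). The endothelial and Kupffer cell means reach 0.25 and 0.46 in wild-type replicate 2, where Cers6 is also highest.

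Genes with a pattern like that of Cers6 were sought by Pearson correlation over the 6 arrays among 11087 genes with a mean above the median. The most alike was Cyp17a1, a steroid hydroxylase, at 10.19, 10.63 and 8.08 in wild type and 6.62, 7.95 and 5.82 in the knockout (-2.84, SE 0.65, r = 0.994). In both genes replicate 2 was highest and replicate 3 lowest in either genotype, and with genotype means removed r was 0.98. It was followed by the RNA helicase gene Ddx52, the calcium sensor gene Stim1, the ribonucleotide reductase gene Rrm1 and the growth factor gene Nrg4 (r = 0.989, 0.989, 0.986 and 0.985). Their genotype differences were -0.27, -0.33, -0.39 and -1.09. The most opposite were Lcn12, of the lipocalin family, the sulfotransferase gene Sult2a8 and the chemokine receptor gene Cxcr3 (r = -0.99, -0.986 and -0.985), with differences of 0.31, 0.43 and 0.32. These are the extremes of 11087 coefficients over 6 points, and since they were sought by likeness to Cers6 their genotype differences are given without a test.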

How the data were processed

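Total RNA of 6 livers was measured on arrays. Per the labels' protocols, tissue was snap frozen, RNA extracted with Trizol and labelled using a GeneChip WT PLUS kit. The authors used RMA and limma per the submitters' processing notes, with no versions given. Their deposited values are log2 expression from RMA, which subtracts background, equalizes the arrays' distributions and summarises probes, so shifts shared by all genes are lost and differences of dim rows shrink. Of 34390 rows, 23521 named exactly 1 gene in the platform annotation, and the brightest row of each gene by its mean over the 6 arrays was used, giving 22180 genes. Paralogs can share probes.

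The genotype fit used limma 3.58.1 under R 4.3.3 (lmFit, eBayes, two-sided, Benjamini-Hochberg over all genes, total degrees of freedom 9.71), and age in a second fit beside genotype. The fit was tested on simulated data. The p-values set a difference against the spread between these animals, with each gene's variance drawn toward that of all genes. The genes, lists and tests were chosen with earlier results of these data known. Named pathway genes are the 2 of smallest unadjusted p in each list, and genes like Cers6 the 5 highest and 3 lowest correlations. Elovl1, Elovl6, Kdsr, Oit3, Col3a1, Sox9, Lyve1, Fasn, Saa2 and Hspa1b were named after their values were seen. Start regions came from RefSeq, GRCm38.p6. Alternatives were other normalizations, a filter on dim genes, other rows per gene, other eBayes settings, weights per array, a block for the replicate number, leaving out each array and, added after seeing the data, leaving out knockout replicates 1 and 3 together.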

Additional observations from a re-analysis of the deposited data

How the results depend on the processing

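The difference of Cers6 kept its direction in the 16 alternatives that leave out at most 1 array (-1.68 to -1.08), as did Cers6 minus Cers2 (-1.87 to -1.11) and, in 17, Cers6 minus the serine palmitoyltransferase subunits (-1.59 to -1.06). The groups of Cers6, alone and against the subunits, did not overlap, so leaving out any 1 array could not turn the sign. The filter, the other eBayes settings and the block return the main difference unchanged, as do other row choices for a gene with a single row. The number of settings is therefore no measure of stability. Leaving out knockout replicates 1 and 3 together, an alternative chosen after seeing the data, gave -0.72 for Cers6, -0.57 against Cers2 and -0.66 against the subunits. It turned Cers2, Degs1, Ugcg and Cers3 (-0.15, 0.12, 0.12 and -0.13). None of the other pathway genes tested passed the adjusted threshold in any alternative (76 genes, or 57 with the filter on dim genes), and 5 to 9 lay below an unadjusted p of 0.05. Of 315 values of the 20 named pathway genes with at most 1 array left out, 1 turned direction: Cers3, at 0.13 with all arrays, lay at -0.023 without knockout replicate 3 and at up to 0.26 without other arrays. Many of the 315 repeat the main value, as said above for such settings, and the genes were named for their small p, so this count overstates stability. Over all genes, 0 passed the adjusted threshold with all arrays, 2 with array weights and 0 to 6 when single arrays were left out (6 without wild-type replicate 3, 1 without wild-type replicate 2, 3 and 2 without knockout replicates 2 and 3). With the filter on dim genes, which tests 11088 genes and leaves out Cers5 and Degs2, 682 lay below an unadjusted p of 0.05 in place of 1174. The age count of 1 was 2 with the row of highest variance per gene, which takes the dimmer row of Cers2, and 0 to 2 without single arrays. The replicate number as a block gave 7 genes past the adjusted threshold over all genes, none of them among the 76. Cers6 and Cyp17a1 were among the 7. Cers6 was chosen on this comparison and Cyp17a1 by its likeness to Cers6, so this is a test of neither. Same-numbered arrays share only a number and an age: their deviations correlated at -0.08, 0.15 and 0.02, and 2 of 6 arrays correlated best with their own number. The age fit was not run with that block, since age and number coincide. With 3 arrays per genotype, a gene that was not called is not shown to be unchanged. Even Elovl3, with a difference of 1.41, was not called by limma (adjusted p = 0.588). The cause of the other changes was not tested.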
